A study of Mus musculus with 25 samples.

Results

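Keratins are the intermediate filament proteins of epithelial cells, and the mouse genes that encode them carry symbols that begin with Krt. All gene symbols made of Krt, a number and at most 1 further letter were taken, which gave 52 keratin genes of the 23940 symbols measured. Their RNA levels were followed in 25 biopsies of tumors that YUMM1.7 cells formed in mice. YUMM1.7 is a cultured mouse melanoma line with mutant Braf, so all groups share 1 line and this allele. Untreated tumors are called Veh (n = 4). Tumors under a BRAF inhibitor were sampled while regressing (Reg, n = 4), as residual tumors (Res, n = 5) and once resistant (Prog, n = 5). The labels mark the other libraries as batch 2, which holds resistant tumors on the inhibitor alone (Prog_b2, n = 3). It also holds tumors given the inhibitor together with anti-PD-L2 antibody, of which 2 were small (aPDL2_small) and 2 were large and resistant (aPDL2_large). The 18 libraries without that mark are called batch 1. The sources used here name neither the inhibitor nor its dose nor the age of the mice.

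Keratins work in pairs, with a type I protein joined to a type II protein in each filament. Basal keratinocytes of the skin make Krt5 and Krt14, keratinocytes above them make Krt1 and Krt10, and hair follicles, nails and wounded or stressed epidermis use further members. Simple epithelia such as gut and bladder make Krt8 with Krt18, Krt19 or Krt20, and Merkel cells of the skin make Krt8, Krt18 and Krt20. Melanocytes are not an epithelium and use vimentin as their main filament.

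Levels are FPKM, fragments scaled by transcript length and library size, so they can be set side by side between genes. Of the 52 keratins, 23 reached 1 FPKM in at least 1 library, 29 never did, and Krt34, Krt40 and Krt74 were listed at 0 in every library. Averaged over the 25 libraries, 16 keratins had 1 FPKM or more. The biopsies held few pigment cell transcripts: Pmel stayed at or below 0.872, Mlana at or below 0.665, Tyr at or below 0.130 and Dct at or below 0.422 FPKM. Mitf ranged from 1.64 to 13.9 FPKM, Sox10 from 0.162 to 188.5 FPKM and Vim from 1507 to 5153 FPKM. The labels count tumors in a group without saying whether each came from its own mouse, so p-values measure the spread between these samples.

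Veh 1, Veh 3 and Res 1 stood apart from all others in keratins of the skin, although they came from different groups. The 33 keratins of basal and suprabasal epidermis, stressed epidermis and companion layer, inner root sheath and hair shaft summed to 1968 (Veh 1), 412 (Veh 3) and 722 (Res 1) FPKM. The same sum lay between 1.34 (Reg 3) and 36.4 (Reg 4) FPKM in the other 22 libraries. These keratins made up 98.1% of all keratin FPKM in Veh 1, and between 4.40% and 8.96% in the 5 Prog tumors. In the 2 other untreated tumors the sum was 2.80 FPKM in Veh 2 and 2.47 in Veh 4, so untreated tumors lay on both sides of this gap.

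**Figure D1:**
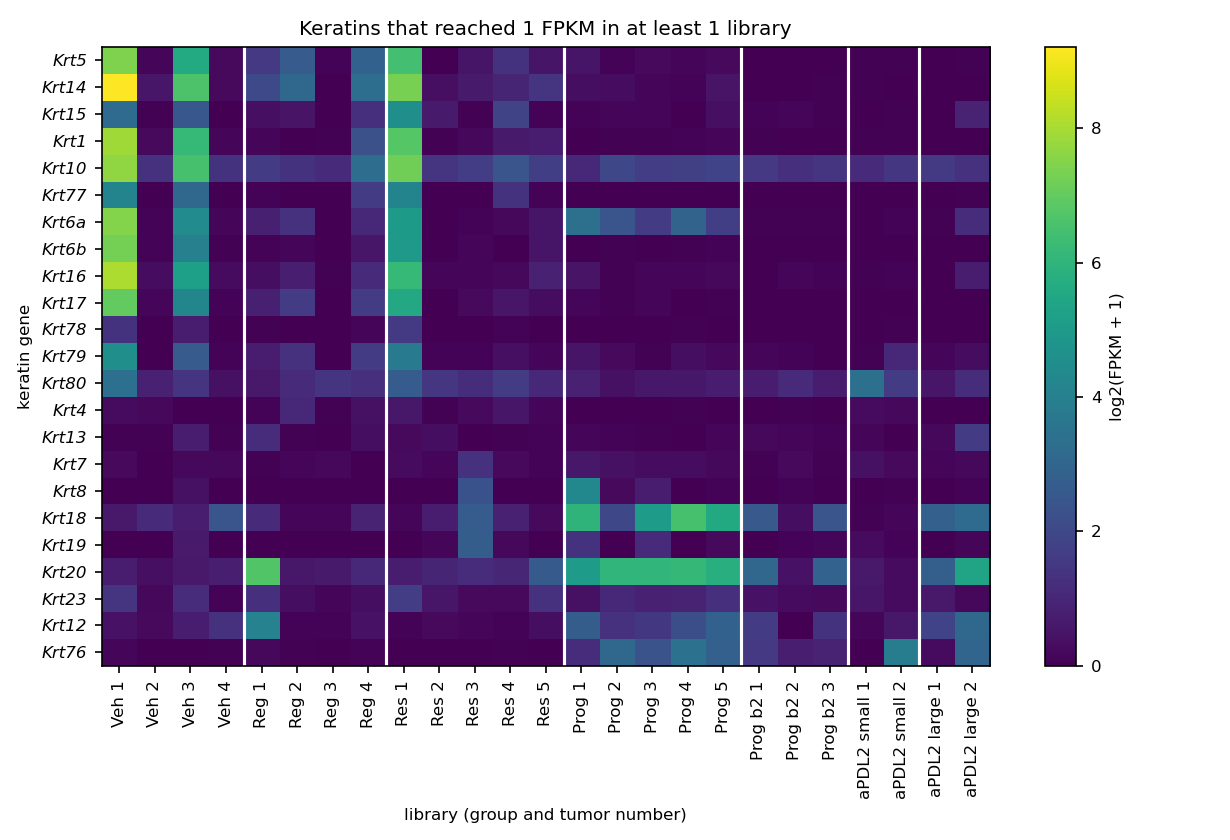
Level of the 23 keratins that reached 1 FPKM in at least 1 library, as log2(FPKM + 1) by color, with keratins in rows and the 25 libraries in columns, split by white lines into groups. The block of skin keratins is bright in Veh 1, Veh 3 and Res 1, while Krt20 and Krt76 in all 5 Prog columns are above every Veh and Res column, and Krt18 in Prog 2 is below Veh 4 and Res 3.

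Krt14, a type I keratin made by basal keratinocytes, was the most abundant keratin in each of these libraries. Its level reached 592 FPKM (Veh 1), 98.2 FPKM (Veh 3) and 158 FPKM (Res 1), and its highest value elsewhere was 9.05 in Reg 4. Its partner Krt5 was at 170, 49.0 and 87.7 FPKM in the same libraries, and at most 6.22 elsewhere, again in Reg 4. Krt15, a basal keratin that also marks the hair follicle bulge, was highest in Res 1 (23.4 FPKM), ahead of Veh 1 (8.29) and Veh 3 (4.71). All 3 basal keratins were thus higher in these 3 libraries than in any of the other 22. The libraries were set apart by a sum that holds the skin keratins, so high levels of its members there are a description and no test. The ratio of Krt5 to Krt14 was 0.287 in Veh 1, 0.499 in Veh 3 and 0.554 in Res 1.

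Suprabasal keratins, also part of that sum, were high in the same libraries. For Krt1 the levels were 237.5 FPKM (Veh 1), 71.6 (Veh 3) and 108 (Res 1), with at most 3.88 in the others. Krt10, its type I partner, was at 207, 91.1 and 148 FPKM there. It differed from Krt1 in that it never fell below 1.07 FPKM, with a median of 1.80 and a maximum of 8.92 (Reg 4) in the other 22 libraries. Krt77, found around sweat gland ducts in human skin, was at 17.0, 7.60 and 17.0 FPKM, and at most 2.09 elsewhere. Krt2, a keratin of the upper epidermis, stayed at or below 0.0427 FPKM.

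The keratins of stressed epidermis and the companion layer were a larger part of the skin sum in Veh 1 than in Veh 3 and Res 1. Krt16, induced in wounded epidermis, reached 269 FPKM (Veh 1), 35.7 (Veh 3) and 70.9 (Res 1), with at most 1.13 elsewhere. Of its 100-base windows 24.3% are shared with other genes, so this level is less certain. Krt6b was at 154, 15.3 and 30.9 FPKM, and at most 0.477 elsewhere. Its level is also less certain, since 30.6% of its windows are shared with other genes, mostly Krt6a. Krt17 was at 128, 17.9 and 45.9 FPKM, and at most 2.08 elsewhere (Reg 2). Krt6a was at 182, 20.7 and 31.2 FPKM there, but unlike Krt6b it was also found in other tumors, up to 9.66 FPKM in Prog 1. The ratio of Krt16 to Krt14 was 0.455, 0.363 and 0.448 in Veh 1, Veh 3 and Res 1. It was 0.0830, 0.0923 and 0.125 in Reg 1, Reg 2 and Reg 4, the regressing tumors in which Krt14 exceeded 3 FPKM.

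Hair keratins were nearly missing where epidermal keratins were high. All 8 keratins of the inner root sheath and all 13 of the hair shaft stayed below 1 FPKM in every library. Their highest sums were both in Veh 1, at 2.66 FPKM for the inner root sheath, with Krt25 at 0.989, and 0.503 FPKM for the hair shaft. Among the keratins outside these classes, Krt79, found in the follicle opening, was at 22.8, 5.21 and 12.5 FPKM in Veh 1, Veh 3 and Res 1 against at most 2.08 elsewhere. Krt78 was at 1.53, 0.653 and 1.93 FPKM against at most 0.121. Krt80 was at 9.27, 1.66 and 5.38 FPKM there, but its highest value was 9.63 in aPDL2_small 1.

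Other epidermal transcripts were high in the same 3 libraries. Of 16 epidermal genes that are not keratins, 13 to 16 reached 1 FPKM in each of the 3, against 2 to 7 in the others. In all 3, 13 of the 16 were higher than in any other library. The share of all genes that were likewise higher was not counted, so this describes the list alone. Krtdap, a gene of differentiating keratinocytes, reached 257 FPKM (Veh 1), 77.8 (Veh 3) and 141 (Res 1), with at most 8.72 elsewhere. Perp, a desmosome component, was at 130, 27.8 and 56.8 FPKM, and at most 4.42 elsewhere. Dmkn and Sbsn broke the pattern, since aPDL2_small 1 held 76.8 FPKM of Dmkn and 68.9 of Sbsn with 0.0389 FPKM of Krt14. So did Lgals7, a galectin of stratified epithelia, which was at 789, 568.3 and 555 FPKM in the 3 libraries and ran from 92.5 to 1599 FPKM in the other 22, with the highest in Prog_b2 1. Lgals7 was higher in Prog than in Res (2.19 ± 0.49, log2 scale, limma, adjusted p = 0.000833). Of 12 general epithelial genes, 4 to 9 reached 1 FPKM in the 3 libraries and 0 to 2 in the others. Of 8 hair genes, 0 to 1 did in the 3 libraries and 0 to 2 in the others. In bulk samples, fewer cells of a type and less RNA per cell cannot be told apart, and how far skin in the biopsy accounts for these levels was not tested.

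**Figure D2:**
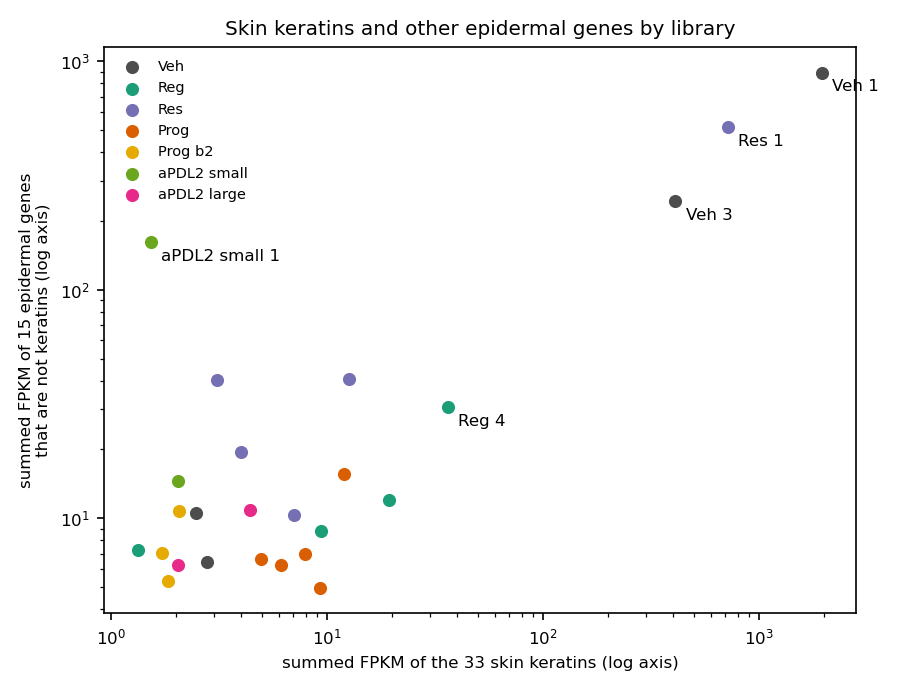
Summed FPKM of the 33 skin keratins (x axis, log) against the summed FPKM of 15 epidermal genes that are not keratins, Lgals7 left out since it was high in every library (y axis, log), with 1 point per library colored by group. Veh 1, Res 1 and Veh 3 stand at the upper right, and aPDL2_small 1 has a high epidermal sum of 162 FPKM with a skin keratin sum of 1.53.

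The keratins raised in resistant tumors were a different set. Krt20 and Krt18 rose in Prog against both Veh and Res, as did Krt76, a type II keratin of the oral palate, and Krt12, the type I keratin of the cornea, rose against Res. The upstream 250 bases of these genes and of Krt8, the usual partner of Krt18, are shown because Krt12 and Krt20 are neighbors on chromosome 11, Krt8 and Krt18 are neighbors on chromosome 15, and they differ in the letters TATAAA, the core of a TATA box. Sequences are from RefSeq (GRCm38.p6), 5′ to 3′ on the gene's own strand and ending at the base before the start. TATAAA is in capitals where it occurs. The windows are chr11:99438154-99438403 (minus strand) for Krt20, chr11:99422260-99422509 (minus) for Krt12, chr15:101892921-101893170 (minus) for Krt76, chr15:102027966-102028215 (plus) for Krt18 and chr15:102004343-102004592 (minus) for Krt8.
Krt20: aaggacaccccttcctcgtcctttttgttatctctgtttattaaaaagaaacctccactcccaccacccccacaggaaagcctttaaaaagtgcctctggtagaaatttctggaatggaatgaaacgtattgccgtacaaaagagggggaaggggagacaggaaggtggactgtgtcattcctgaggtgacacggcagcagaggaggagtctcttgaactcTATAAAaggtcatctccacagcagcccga
Krt12: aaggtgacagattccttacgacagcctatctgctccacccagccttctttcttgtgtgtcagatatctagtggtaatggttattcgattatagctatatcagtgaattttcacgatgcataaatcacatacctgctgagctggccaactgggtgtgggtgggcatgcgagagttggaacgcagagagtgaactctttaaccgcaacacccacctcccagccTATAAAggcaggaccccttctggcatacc
Krt76: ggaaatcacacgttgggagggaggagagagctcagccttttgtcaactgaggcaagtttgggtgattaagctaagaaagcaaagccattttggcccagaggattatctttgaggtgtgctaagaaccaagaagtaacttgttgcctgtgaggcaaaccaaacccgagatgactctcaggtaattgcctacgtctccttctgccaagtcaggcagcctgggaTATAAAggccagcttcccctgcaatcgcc
Krt18: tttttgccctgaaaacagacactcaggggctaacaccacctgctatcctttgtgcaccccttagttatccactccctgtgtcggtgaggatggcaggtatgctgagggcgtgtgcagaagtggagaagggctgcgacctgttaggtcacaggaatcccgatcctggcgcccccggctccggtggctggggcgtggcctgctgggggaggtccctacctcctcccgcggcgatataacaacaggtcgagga
Krt8: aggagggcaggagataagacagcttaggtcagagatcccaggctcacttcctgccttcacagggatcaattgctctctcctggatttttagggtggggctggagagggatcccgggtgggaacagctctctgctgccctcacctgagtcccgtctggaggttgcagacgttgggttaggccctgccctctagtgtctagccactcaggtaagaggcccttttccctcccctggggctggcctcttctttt

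TATAAA was searched on both strands and was chosen after the sequences were seen. It began 29 bases before the start in Krt20, Krt12 and Krt76, and was not in the windows of Krt18 and Krt8. Of all 32851 promoter windows 12.4% held these letters, and 17 of the 36 windows of keratin genes did (47.2%). The AP-1 letters TGANTCA, also searched on both strands, were in none of the 5 windows, in 6.75% of all windows and in 5.56% of keratin windows. A match is a description of the letters in the window.

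Krt20 was the most even of the keratins raised in resistance. It was at 32.0, 66.3, 66.0, 69.7 and 54.9 FPKM in the 5 Prog tumors, and at 0.635, 0.299, 0.564 and 0.722 FPKM in the 4 untreated tumors. In residual tumors it was at 0.633, 0.913, 1.27, 0.964 and 5.09 FPKM. The Prog values did not overlap with either group. The highest Krt20 of all was in a regressing tumor, Reg 1, at 103.9 FPKM, while Reg 2, 3 and 4 were at 0.516, 0.574 and 1.04. The change from Veh to Prog was 5.20 ± 0.91 on the log2(FPKM + 1) scale (SE, limma, adjusted p = 0.000356), and from Res to Prog 4.54 ± 0.86 (limma, adjusted p = 0.000186).

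Krt18 varied more among resistant tumors. It was at 61.9, 3.04, 32.1, 90.4 and 47.7 FPKM in Prog 1 to 5, against 0.564, 1.21, 0.658 and 4.44 FPKM in the untreated tumors. Prog 2 was the low resistant tumor and lay below Veh 4, so the groups overlapped. In residual tumors Krt18 was at or below 0.799 FPKM except in Res 3, at 5.40. It rose by 3.79 ± 0.74 from Veh to Prog (log2 scale, SE, limma, adjusted p = 0.000766) and by 4.10 ± 0.69 from Res to Prog (limma, adjusted p = 6.74e-05).

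Krt8, the usual type II partner of Krt18, did not follow it. In Prog 1 to 5 it was at 18.9, 0.180, 0.681, 0 and 0.0528 FPKM, so the tumor with the most Krt18, Prog 4, had Krt8 listed at 0. The ratio of Krt18 to Krt8 was 3.28 in Prog 1, 16.9 in Prog 2, 47.0 in Prog 3 and 903 in Prog 5. Krt8 reached 1 FPKM in 2 libraries only, Prog 1 and Res 3 (4.01 FPKM). Its change from Veh to Prog was 0.96 ± 0.71 (log2 scale, limma, adjusted p = 0.275) and did not pass the test. Of the 100-base windows of its transcript, 16.9% are shared with other genes, chiefly a Krt8 pseudogene, so its values are less certain than those of Krt20, Krt18, Krt12 and Krt76, which share none.

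Krt76 was at 1.24, 7.60, 4.09, 10.2 and 6.09 FPKM in the Prog tumors. It was at or below 0.133 FPKM in untreated, 0.159 in regressing and 0.0292 in residual tumors, and no Prog value overlapped with these. It rose by 2.52 ± 0.31 from Veh (log2 scale, limma, adjusted p = 2.71e-05) and by 2.56 ± 0.29 from Res (limma, adjusted p = 1.71e-06). Krt76 passed the filter on low values through Prog alone among the batch 1 groups. With no filter, where 48 keratins were tested, it was called as well (limma, adjusted p = 5.4e-05 against Veh). Its neighbors in gene order, Krt77 and Krt4, stayed at or below 0.0350 FPKM in Prog tumors.

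Krt12 was at 5.51, 1.47, 1.84, 3.61 and 6.28 FPKM in Prog, at or below 0.272 FPKM in Res and between 0.167 and 1.51 FPKM in Veh. It rose by 1.94 ± 0.59 from Res (log2 scale, limma, adjusted p = 0.00761), and its difference from Veh of 1.44 ± 0.63 did not pass (limma, adjusted p = 0.0707). Its highest value was 16.1 FPKM in Reg 1, the tumor that also had the highest Krt20. In that tumor Krt18 was at 1.13 FPKM and Krt76 at 0.159.

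Krt6a and Krt10 were the skin keratins above 1 FPKM in all 5 Prog tumors. Krt10 was at 1.07, 2.99, 2.18, 2.32 and 2.57 FPKM there, and Krt6a at 9.66, 4.32, 2.08, 6.55 and 2.27 FPKM, where Krt14 was at most 0.387 FPKM. Krt6a did not pass against Veh, at -0.63 ± 1.30 (log2 scale, limma, adjusted p = 0.708), with Veh 1 at 182 and Veh 3 at 20.7 FPKM. With Veh 1, Veh 3 and Res 1 left out, its difference was 2.30 ± 0.44. Those libraries were picked by a sum that holds Krt6a, so this is a description and no test. Of its 100-base windows, 34.0% are shared with other genes, mostly Krt6b, whose own level in Prog was low.

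**Figure D3:**
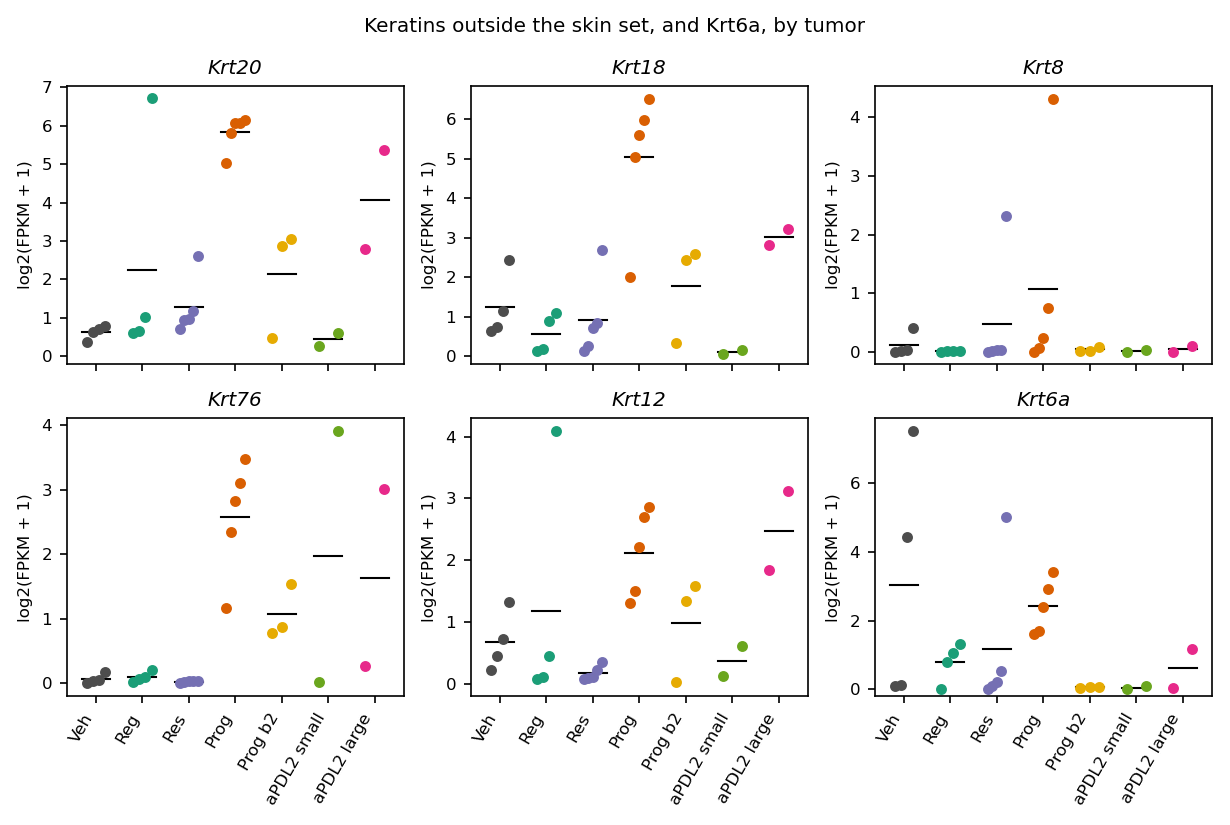
Levels of Krt20, Krt18, Krt8, Krt76, Krt12 and Krt6a as log2(FPKM + 1), 1 point per tumor and 1 column per group, with a line at the group mean. Prog points for Krt20 and Krt76 lie above every untreated and residual tumor, while Krt8 is high in Prog 1 and Res 3 alone.

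Read over the whole family, 17 of the 52 keratins passed the filter of a mean of 1 FPKM over the 18 batch 1 libraries. A keratin that passed through the group in which it is high had to differ, so the counts below describe those tested and are not evidence about the family. From Veh to Prog 3 were called higher (Krt20, Krt18 and Krt76) and 0 lower. Of all genes tested, 25.2% were called higher and 21.1% lower. By limma 10 of the 17 had an unadjusted p below 0.05, in either direction, as did 54.0% of all genes. Without Veh 2 the number called was 11 and without Veh 4 it was 12, of 17 tested, since skin keratins were then called lower. With 1 library left out, 4735 to 5580 of all genes were called. The number of keratins called with the batch 2 resistant tumors in place of Prog was 0. From Res to Prog 4 were called higher (Krt12 besides) and 0 lower. Of all genes 40.0% were called higher, and the share called lower is not given here, so the 0 has no background. By limma 5 of the 17 had an unadjusted p below 0.05, in either direction, as did 74.4% of all genes. With batch 2 in place of Prog the number of keratins called was 0. From Veh to Res 0 were called, against 45.5% of genes called in either direction. From Veh to Reg 0 were called, against 0.0164% of genes. In both of these, 0 of the 17 had an unadjusted p below 0.05 by limma, and without Res 1 the number called from Veh to Res was 1, Krt16. Comparisons that share Prog or Veh libraries are not independent.

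The skin keratins had negative differences that did not pass. Krt14 differed by -3.89 ± 1.67 from Veh to Prog (log2 scale, limma, adjusted p = 0.0666), Krt5 by -3.12 ± 1.44 (limma, adjusted p = 0.0859) and Krt1 by -3.55 (limma, adjusted p = 0.0678). Without Veh 1, Veh 3 and Res 1 these values were -0.12 for Krt14 and 0.05 for Krt5. The libraries were picked by a sum that holds both genes, so this is a description and no test. Krt20, Krt18 and Krt76 were still called without them, at 5.25, 3.24 and 2.55.

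**Figure D4:**
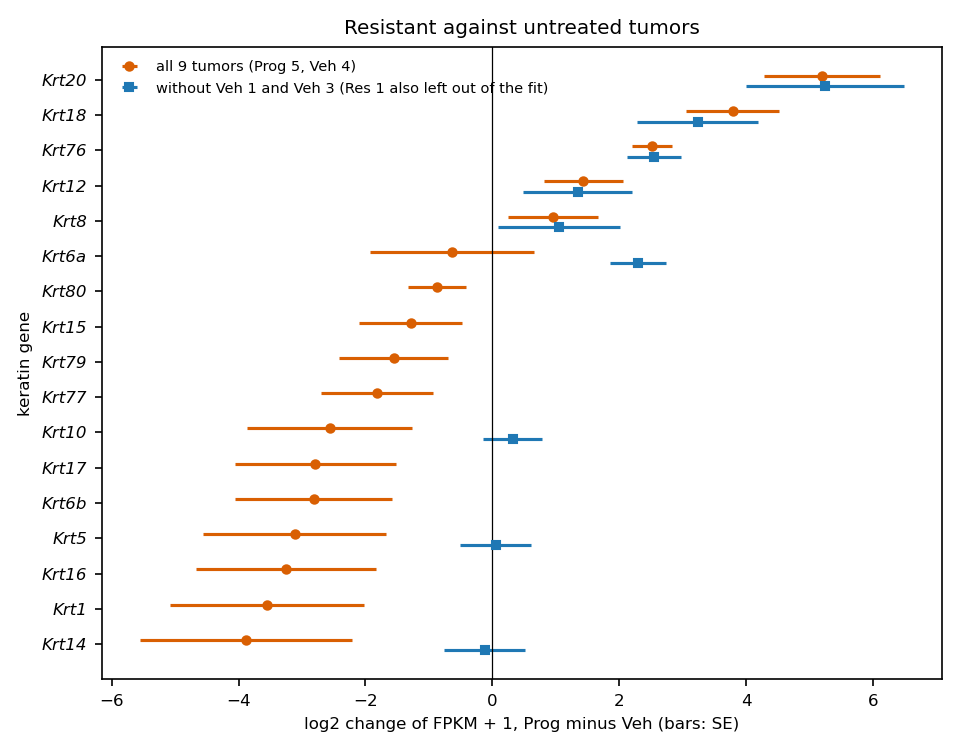
Difference between Prog and Veh on the log2(FPKM + 1) scale for the keratins tested, with bars for the SE. Orange points use all tumors and blue squares leave out Veh 1, Veh 3 and Res 1; Krt20, Krt18 and Krt76 stay on the right in both, and Krt14 and Krt5, part of the sum by which those libraries were picked, move from the left to near 0.

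In gene order, keratins raised in resistance stood beside others that were not. Of the keratins placed by RefSeq, 27 lie on chromosome 11 and 23 on chromosome 15. Krt10, Krt12, Krt20 and Krt23 follow each other on chromosome 11, and in Prog tumors Krt10 and Krt23 did not show the levels of Krt20. On chromosome 15, Krt8 and Krt18 stand side by side at the end of the cluster.

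**Figure D5:**
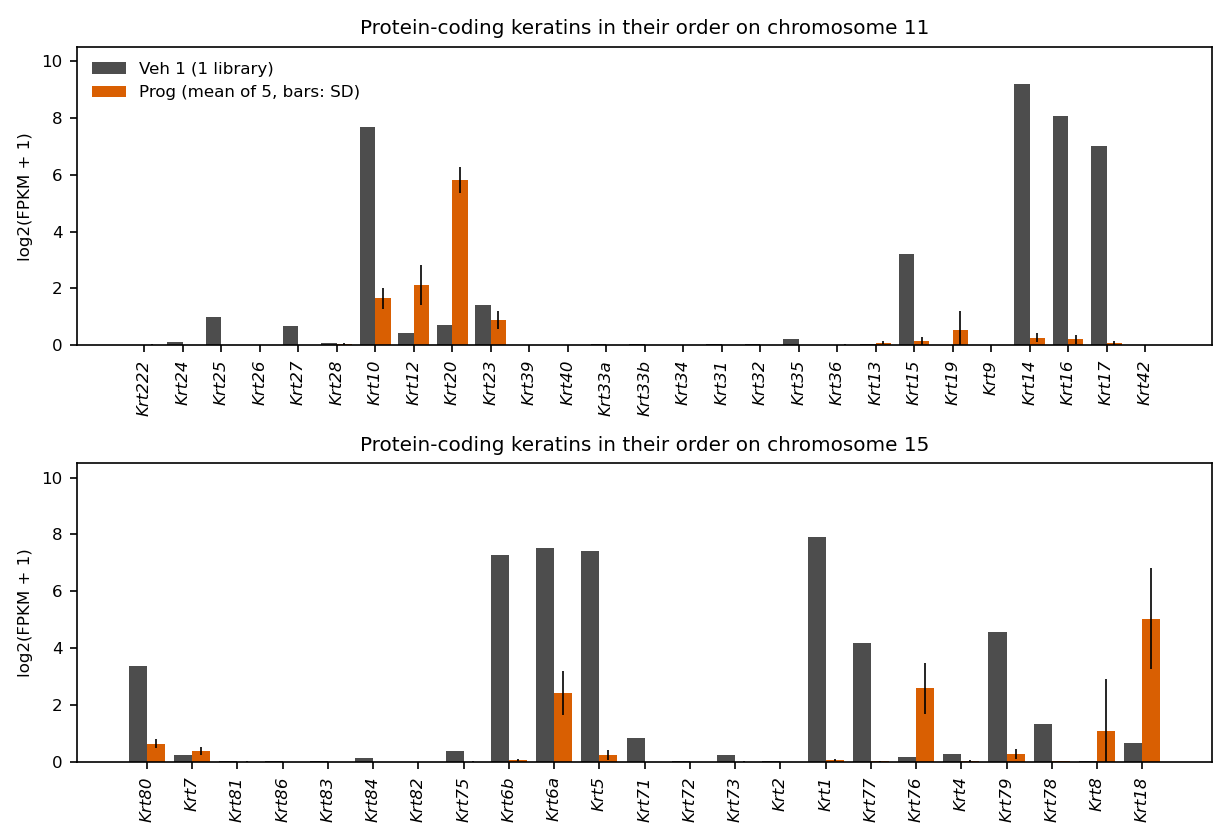
Level of each protein-coding keratin as log2(FPKM + 1), in gene order on chromosome 11 (top) and 15 (bottom), in Veh 1 (gray, 1 library) and in Prog (orange, mean of 5 with SD bars). Veh 1 is high at Krt10, Krt14, Krt16, Krt17, Krt5, Krt6a, Krt6b and Krt1, and Prog at Krt20, Krt18, Krt76, Krt6a and Krt12.

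Resistant tumors of batch 2 had less Krt20 and Krt18 than Prog tumors. Krt20 was at 7.26, 0.380 and 6.36 FPKM in Prog_b2 1 to 3, below every Prog tumor. Krt18 was at 4.95, 0.255 and 4.43 FPKM there, overlapping with Prog 2, and Krt76 at 1.92, 0.715 and 0.842 FPKM. Krt20 was lower by -3.70 ± 0.99 (log2 scale, limma, adjusted p = 0.0237) and Krt18 by -3.25 ± 0.77 (limma, adjusted p = 0.0135). These were the 2 keratins called lower, against 6.06% of all genes called lower. Krt76 and Krt12 overlapped with Prog and were not called (limma, adjusted p = 0.136 and 0.297). Krt20 was not called with the replicate block, nor Krt18 with library weights or with the compared groups alone. Batch and group cannot be told apart here. Without Prog_b2 2, the lowest of these tumors, neither was called (Krt20 -2.86, limma, adjusted p = 0.125; Krt18 -2.52, limma, adjusted p = 0.0793). Krt6a was at most 0.0504 FPKM in Prog_b2.

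With the antibody against PD-L2, 0 keratins were called in small or large tumors against Prog_b2, where 0% of all genes were called by limma. Of the 11913 genes tested, 1399 had an unadjusted p below 0.05 for small and 165 for large tumors. Unadjusted, 2 of the 6 keratins tested were below 0.05 for small tumors and 1 of 6 for large. Large tumors had 5.91 and 40.2 FPKM of Krt20 and 6.07 and 8.37 FPKM of Krt18. Small tumors had 0.530 and 0.210 FPKM of Krt20, and 0.0420 and 0.111 of Krt18, all below the 2 higher Prog_b2 tumors. Krt76 reached 14.1 FPKM in aPDL2_small 2, its highest value of all, and 7.06 in aPDL2_large 2.

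Genes of other filaments and of keratin attachment were described from lists. Of 10 other filament genes 6 were tested, and 3 were higher in Prog than in Veh (median 0.40 on the log2 scale, against 0.01 over all genes). The shares of all genes called from Veh to Prog were 25.2% higher and 21.1% lower, and the list counts that follow are read against them. Nefl and Nefm, neurofilament subunits, rose by 3.16 ± 0.65 and 2.96 ± 0.51 (log2 scale, limma, adjusted p = 0.00114 and 0.000315). Nes rose by 0.91 ± 0.30 (limma, adjusted p = 0.0203), a call lost without Veh 2 (limma, adjusted p = 0.0540) or Veh 3 (limma, adjusted p = 0.0751). Of 14 genes of desmosomes and hemidesmosomes 9 were tested, with 1 higher and 1 lower (median -0.16). Itga6, an integrin subunit of hemidesmosomes, rose from 32.4 ± 4.1 to 170 ± 45 FPKM (SD), by 2.34 ± 0.28 (limma, adjusted p = 2.3e-05). Itgb4 and Col17a1, also of hemidesmosomes, differed by 0.02 and -1.08 and were not called (limma, adjusted p = 0.962 and 0.204). Pkp3, a plakophilin of desmosomes, fell by 1.44 ± 0.42 (limma, adjusted p = 0.0101). Pkp3 was 6.67 FPKM on average in Veh with an SD of 5.95. It was high in the 3 libraries with high skin keratins, at 15.4 (Veh 1), 4.93 (Veh 3) and 8.32 FPKM (Res 1). Elsewhere it was at most 4.05 FPKM, in Veh 4.

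Merkel cells make Krt20, Krt18 and Krt8, so their other markers are given. Of 7 Merkel genes 2 were tested and 1, Piezo2, rose from 12.3 to 28.3 FPKM in Prog (1.14 ± 0.21, limma, adjusted p = 0.000486). Atoh1, the factor that defines Merkel cells, was at or below 0.0137 FPKM in every library, and Pou4f3 was listed at 0. Isl1, also tested, differed by 0.06 (limma, adjusted p = 0.83). Chga was at most 0.0533 FPKM in Prog and at least 0.242 in Veh, Syp at most 0.175 in Prog and at least 0.186 in Veh, and Rab3c at most 0.0785 FPKM in every library. Of 16 epidermal genes 12 were tested and 1, Sfn, was lower in Prog (-1.86 ± 0.74, limma, adjusted p = 0.0492). Without Veh 1, Veh 3 and Res 1 the difference of Sfn was -0.18 (limma, adjusted p = 0.591). Of 12 general epithelial genes 3 were tested and 0 were called, and of 8 hair genes S100a3 was tested and was higher (0.79, limma, adjusted p = 0.0148), a call lost without Veh 2 (limma, adjusted p = 0.0596).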

How the data were processed

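RNA of 25 tumor biopsies was sequenced from poly(A)-selected unstranded TruSeq libraries, per the labels' protocols. The authors deposited FPKM per gene symbol. Per the submitters' processing notes, TopHat, TopHat2, Cuffnorm, Cuffdiff and mm9 were used, with roles and versions not given in the sources used here. No counts were used, so the depth behind each value is not known and intervals for counting error could not be given. In 9 of the 18 batch 1 columns many values have more than 6 digits, as means of paired values would.

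Tests used limma 3.58.1 (R 4.3.3) on log2(FPKM + 1) with a variance trend and 1 term per group, over genes with a mean of at least 1 FPKM, in fits of 18 libraries (batch 1), 7 (batch 2) or 25 (Prog_b2 against Prog). A fold change on this scale understates the change of low genes. Tests were two-sided, with Benjamini-Hochberg adjustment over all genes tested and calls below 0.05. The fit was tested on simulated data in which the spread of each gene was capped and changes were planted in more abundant genes only. That test does not cover genes as variable as the skin keratins. Alternatives were the pseudocount, filter, scaling, weights, replicate block, other sample sets and leaving out libraries. Named keratins were those called or with a mean of at least 1 FPKM. Of other lists, up to 4 called genes and up to 4 of the highest in Veh 1 were eligible. Members and lists were chosen with earlier results of these data known. Sequence windows and gene order are from RefSeq GRCm38.p6, and shared 100-base windows from GENCODE transcripts. Other tools were Python 3.11.15, pandas 2.3.3 and matplotlib 3.10.9.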

Additional observations from a re-analysis of the deposited data

Results flagged for a closer look

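Keratins with a mean of at least 1 FPKM over the 25 libraries were taken in the batch 1 groups, since the batch 2 groups were too small. Of 48 such combinations with at least 1 FPKM in the highest library, 26 held a library far from the rest of its group. This was judged by its gap to the nearest other library over the whole range. Chance gives about 1 in 20 for independent groups of normally distributed values, and FPKM were used here without a log. The combinations were kept by their highest library and keratins are high in the same libraries, so the number is not a comparison with chance. Res 1 stood apart in residual tumors at 108 FPKM of Krt1, 148 of Krt10, 158 of Krt14, 23.4 of Krt15, 70.9 of Krt16, 45.9 of Krt17, 87.7 of Krt5, 31.2 of Krt6a, 30.9 of Krt6b, 17.0 of Krt77, 12.5 of Krt79 and 5.38 of Krt80. Veh 1 stood apart in untreated tumors at 592 FPKM of Krt14, 269 of Krt16, 128 of Krt17, 182 of Krt6a, 154 of Krt6b and 9.27 of Krt80. Reg 4 stood apart in regressing tumors at 3.88 FPKM of Krt1, 8.92 of Krt10 and 2.09 of Krt77. Reg 1 did so at 103.9 FPKM of Krt20 and 16.1 of Krt12. Krt18 stood apart in Veh 4 at 4.44 FPKM and in Res 3 at 5.40 FPKM, and Krt20 in Res 5 at 5.09 FPKM.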

How the results depend on the processing

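The number of keratins called from Veh to Prog was 3. It was 7 of the 16 tested in a fit of all 25 libraries, where Krt1, Krt14, Krt16 and Krt6b were called lower. With the batch 2 resistant tumors in place of Prog it was 0. When 1 library was left out it was 3 to 12 (11 without Veh 2 and 12 without Veh 4), while 4735 to 5580 of all genes were called. The share of all genes called in the fit of 25 libraries is not given here. From Res to Prog the number of keratins called was 4, and 0 with batch 2 in place and 4 to 5 with 1 library left out. With no filter it was 7 of the 48 tested, where 55.3% of all genes were called. Krt222, Krt36 and Krt86, called with no filter only, differed by -0.062, -0.071 and -0.025 and never exceeded 0.157 FPKM. From Veh to Res the number called was 0, and 0 to 1 with 1 library left out, 1 being without Res 1. With no filter it was 2 of the 48 tested, where 31.6% of all genes were called. These were Krt42 and Krt86, which differed by -0.031 and 0.020 and never exceeded 0.0516 FPKM. From Prog to Prog_b2 the number called was 2, and 1 with a replicate block and 1 with library weights. It was 0 to 2 with 1 library left out, 0 being without Prog_b2 2. Without Veh 1, Veh 3 and Res 1, which were picked by their skin keratin sum, signs turned for Krt5 and Krt14 from Veh to Reg (1.59 and 1.73), for both from Veh to Res (0.41 and 0.45) and for Krt5 from Veh to Prog (0.050), none of them called. With 1 library left out, Krt18 from Veh to Res ranged from -0.75 to 0.086 (without Veh 4) and Krt8 from -0.095 (without Res 3) to 0.49, never called. The cause was not tested. Over 31 same-number pairs the correlation of deviations from the group mean ran from -0.52 to 0.37, and 8 exceeded 0.1. Of 62 matches of a library to another group, 13 were best with the same number. With so few tumors per group this cannot exclude a pairing. With the replicate block Krt20 from Veh to Prog was 5.04 (limma, adjusted p = 0.00214). All-gene calls from Prog to Prog_b2 were 1090, and 495 with the block, 631 with library weights and 511 with the compared groups alone. From Veh to Prog they were 5658, and 2389 with batch 2 in place. Depth is unknown, and the number of tumors limits the precision.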

Other observations

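Some tumors held keratin combinations that belong to no comparison between groups, and these were chosen after their values were seen. Res 3 had Krt8 at 4.01, Krt18 at 5.40, Krt19 at 5.56 and Krt7 at 1.48 FPKM, a simple epithelial set, with Krt20 at 1.27 and Epcam, an epithelial adhesion molecule, at 1.58 FPKM. Prog 1 was the other tumor with Krt8 above 1 FPKM, and there Krt19 was at 1.58 and Krt7 at 0.492 FPKM. In aPDL2_small 1, Krt80 was at 9.63 FPKM with Krt5 at 0.0301 FPKM. In aPDL2_small 2, Krt76 was at 14.1 FPKM with Krt20 at 0.210 FPKM, and Pkp1, a desmosomal plakophilin, was at 69.9 FPKM. Krt13, a keratin of mucosal epithelium, was highest in aPDL2_large 2 at 2.08 FPKM and next in Reg 1 at 1.26 FPKM.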
